A study of Canis lupus familiaris with 2 samples.

Results

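CpG-dense sequence that stays free of methylation was rare inside the low-methylation domains of MDCK cells, and 156 windows of 1000 bp met the description. They were chosen from the control library among the 1497941 windows tested. A CpG-dense window had 40 or more listed CpG sites, and an unmethylated one was under 10% methylated in the control library. A low-methylation domain was a 100 kb stretch of an autosome whose control level was under 55% over the sites outside unmethylated CpG-dense windows. Windows in runs of 3 or more adjacent windows under 10% were left out, which removed 20 windows of these domains. The 156 windows remained of 10433 unmethylated CpG-dense windows on autosomes, and they lay in 123 of 9205 low-methylation domains. Because the control level chose them, that level is given as a description, and each difference between the libraries inherits the choice.

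In vertebrate genomes most CpG sites are methylated, and CpG islands are the main exception: short CpG-rich stretches, often at gene promoters, that are usually kept unmethylated. Partially methylated domains are long stretches in which the sites between islands have lost part of their methylation, and they are common in cultured cell lines and tumours. CpG islands inside such domains can gain methylation, so an unmethylated CpG-dense window there is the contrary case.

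MDCK is an epithelial cell line from dog kidney, and TGF-beta is a growth factor that can turn epithelial cells into motile, mesenchymal ones. The control library came from untreated cells that the labels call epithelial, cultured for 30 days beside the treated ones. The TGF-beta library came from cells given TGF-beta at 5 ng/ml over the same days, which the labels call mesenchymal. DNA methylation was measured in each by whole-genome bisulfite sequencing, in which unmethylated cytosine is read as thymine, so that every read over a CpG gives a methylated or an unmethylated call. Each group had 1 library, so no difference has a replicate check, and every test on reads compares the 2 libraries and not the conditions.

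The control library held 656122583 calls and the TGF-beta library 1019766599. A CpG site was kept with 5 or more calls in both libraries, which 22984712 sites reached, at a median of 22 calls in the control library and 38 in the TGF-beta library. The level of a window is its methylated calls as a percent of all its calls, and differences are in percentage points, TGF-beta minus control. Intervals are exact 95% binomial intervals that cover counting error only, since the protocol names no molecular identifiers and PCR copies are not independent molecules. Mitochondrial DNA, which served as a background of near-zero methylation, read 0.211% in the control library and 0.329% in the TGF-beta library.

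The 156 windows held a median of 76.5 listed CpG sites, from 40 to 149, with a median gap of 7 bp between neighbouring sites. A median of 65 sites per window was kept, and 18 windows kept under 50% of their listed sites, so their levels describe only a piece of the window. Calls per window ran from 25 to 16020 in the control library with a median of 1086, and from 44 to 27366 in the TGF-beta library with a median of 2497. The median ratio of TGF-beta to control calls was 2.26 in these windows against 1.58 over all kept sites, so the TGF-beta levels are the better measured. In domains at 70% or more, the unmethylated CpG-dense windows had a median ratio of 2.23.

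Within low-methylation domains the usual state of CpG-dense sequence was methylated, not unmethylated. Of 7572 CpG-dense windows there, 88.5% were at 50% or more in the control library and 2.32% were under 10%. Methylated was the usual state in the other classes too, with 83.2% at 50% or more in domains from 55% to under 70% and 73.0% in domains at 70% or more. The share under 10% was 6.65% of 18722 CpG-dense windows in domains from 55% to under 70%, and 16.5% of 54633 in domains at 70% or more. CpG-dense windows were themselves scarce in low domains, at 1.67% of the windows tested against 8.02% in domains at 70% or more. Per 100 domains this left 1.91 unmethylated CpG-dense windows in low domains, 36.8 in the middle class and 95.4 in domains at 70% or more, long runs included. These shares use the control level that also defined the windows, so they are counts without a test.

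**Figure D1:**
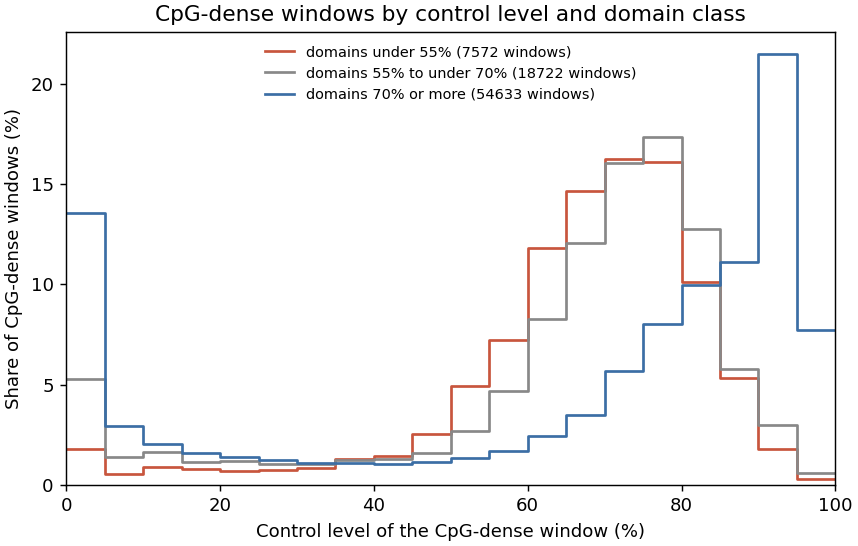
Share of CpG-dense windows (vertical axis, % of the windows of a domain class) at each control level (horizontal axis, %, in steps of 5 points), with 1 line per class of 100 kb domain. The line for domains under 55% has its main peak between 60% and 80% and only 2.32% of its 7572 windows under 10%, against 16.5% in domains at 70% or more.

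The low domains that held such a window were not typical of their class. Their control level had a median of 50.7%, from 35.3% to 54.9%, against 38.8% in the 9082 low domains without one. None of the 2696 domains under 35% held one, whereas 65 of the 1111 domains from 50% to under 55% did, with 91 of the 156 windows. Of the 123 domains, 88 (71.5%) lay next to a domain at 55% or more, against 25.7% of those without such a window. They also sat in shorter stretches of low domains, with a median of 4 adjacent low domains against 13. Most domains held a single window of the set: 105 had 1, 13 had 2 and 5 had 3 or more.

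Chromosome 35 held more of these windows per tested Mb than any other autosome. Its 27 windows made 1.43 per Mb, and chromosome 23 followed with 0.277 per Mb. Chromosomes 9, 28 and 32 held none. In the coordinates of the canFam3 build, which apply throughout, all 27 lay between positions 24002001 and 26408000 of chromosome 35, in 7 domains with control levels from 44.7% to 54.6%. The domain chr35:25000001-25100000 held 7 of them, the most of any domain, and read 54.6% in the control library and 53.6% in the TGF-beta library. Over the 27 windows the median level was 0.951% in the control, and it was 1.14% in the TGF-beta library with a range from 0.113% to 19.0%. Over the whole set, 53 windows lay under 100 kb from another member and 31 under 10 kb, so neighbouring windows are not independent.

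The windows stayed nearly unmethylated in the TGF-beta library. The control median was 1.45% with quartiles of 0.329% and 4.78%. The TGF-beta median was 2.02%, with quartiles of 0.652% and 5.72% and a range from 0% to 33.5%. In the TGF-beta library 51 windows were under 1%, 110 under 5% and 138 under 10%, which leaves 18 (11.5%) at 10% or more and 4 at 20% or more. Of those 18, 15 came from the 39 windows that were already between 5% and 10% in the control. Of the 71 windows under 1% in the control, 45 were under 1% in the TGF-beta library too and 3 reached 5% or more. Summed over all windows the level was 2.57% (2.50 to 2.64) in the control library and 3.36% (3.31 to 3.42) in the TGF-beta library.

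**Figure D2:**
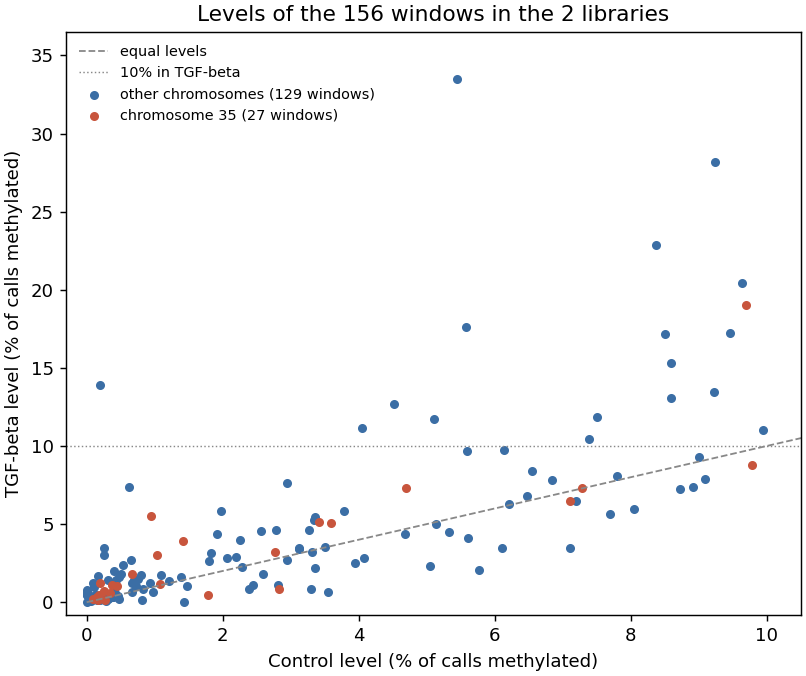
Level of each of the 156 windows in the TGF-beta library (vertical axis, % of calls methylated) against the control library (horizontal axis, %), 1 point per window, with the 27 windows of chromosome 35 in red; the dashed line marks equal levels and the dotted line 10%. Most points lie in the lower left corner, and 18 lie above the dotted line.

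Small differences between the libraries leaned upward. The level was higher in the TGF-beta library in 111 windows and lower in 44, with a median difference of 0.338 points and quartiles of -0.0621 and 1.62. The mean of site levels, which weights each site equally, gave a median difference of 0.709, and calls drawn down to equal numbers per site gave 0.621. Windows chosen by the same rule in domains at 70% or more differed by a median of 0.297 points, and those in domains from 55% to under 70% by 0.321. Mitochondrial DNA was 0.118 points higher in the TGF-beta library, and how much of the shift in the windows it accounts for was not tested. The share at 10% or more in the TGF-beta library was 11.5% of the 156 windows, 9.32% of 1030 in the middle class and 7.97% of 7469 in domains at 70% or more.

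Larger differences ran upward in these windows, in a setting where the choice itself left little room below. The difference was 5 points or more in 14 windows and 10 or more in 6, and no window was lower by 5 points or more. The most negative difference was -3.73 points. With calls drawn down to equal numbers per site, windows higher by 10 points or more outnumbered those lower by 3 instead of 6. When the same rule was applied to the TGF-beta library instead, it gave 152 windows, 106 of them shared (67.9% of the first set and 69.7% of the second). In that set 3 windows were higher in the TGF-beta library by 5 points or more and 6 were lower. At 10 points or more, 0 were higher and 4 were lower. A window under 10% in the choosing library cannot be higher there by 10 points. The rule therefore fixed the direction of differences of 10 points or more in both sets. The smaller differences did not turn: 97 of the 152 were higher in the TGF-beta library and 55 lower, with a median difference of 0.153 points.

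The strands of a CpG come from separate molecules, so choosing and measuring on different strands share no calls at sites listed on both strands. This separates the counting error of the choice from that of the measurement. It does not remove the choice itself, because both strands used for it belong to the control library. The same split with the TGF-beta library as chooser was not tested. Windows chosen on the plus strand of the control library and measured on the minus strand numbered 158, of which 106 were higher in the TGF-beta library and 48 lower. Differences of 10 points or more were upward in 12 of these and downward in 2. Choosing on the minus strand and measuring on the plus strand gave 170 windows, 100 higher and 64 lower, with 11 upward and 3 downward by 10 points or more. The median differences were 0.359 and 0.256 points.

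Each window was compared by Fisher's exact test (two-sided, summed calls), with Benjamini-Hochberg adjustment across all windows, and 1 of the 156 windows (0.641%) passed an adjusted p of 0.05 with a gain of 20 points or more. That share was 2.22% over all windows tested and 0.415% over CpG-dense windows. None was lower by 20 points or more, where all windows gave 1.43% and CpG-dense windows 0.133%. At 10 points or more, 6 windows were called higher against 8.40% of all windows and 3.49% of CpG-dense ones, and 0 were called lower against 6.58% and 1.34%. With no limit on size, 44 were called higher against 13.4% and 20.0%, and 14 lower against 10.0% of each. A window under 10% in the control library cannot be lower by 10 points or more, so the rule fixed the zeros at 10 and 20 points. The control level that chose the windows is one side of this contrast, so nothing is read from these counts. A score test enlarged the variance for the disagreement between strands, by factors of 3.37 in the control library and 6.15 in the TGF-beta library. It left 5 windows called higher and 1 lower at any size. The factors were estimated from windows of intermediate level, at 10% or more in the library, whereas the members were under 10% in the control. Whether the factors hold for the members was not tested.

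The largest difference lay at chr1:104706001-104707000, a window with 46 listed sites of which 32 were kept. Its level was 5.44% (3.94 to 7.31, 753 calls) in the control library and 33.5% (30.7 to 36.4, 1081 calls) in the TGF-beta library. The difference was 28.0 points, with an adjusted p of 4.53e-49 in Fisher's exact test and 3.83e-08 in the score test. Both strands moved the same way, from 5.98% to 28.2% on the plus strand and from 4.26% to 45.7% on the minus strand. Of its kept sites, 22 were higher by 20 points or more. The kept sites all lay in the last 500 bp of the window. The domain around it changed little, from 41.7% to 43.0%.

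Another window with a large difference was chr4:7024001-7025000, which held 128 listed sites but only 46 kept ones. It read 9.24% (6.68 to 12.4, 433 calls) in the control library and 28.2% (23.9 to 32.8, 415 calls) in the TGF-beta library. Fisher's exact test gave an adjusted p of 5.79e-11, and the score test that allows for the spread between strands gave 0.0847. Its difference of 19.0 points was under the 20 points asked of a call. The domain went from 53.8% to 51.1%.

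The window chr10:50597001-50598000 was the best covered of the 3 that met the naming rule, with all 77 listed sites kept. Its level was 5.57% (4.47 to 6.85, 1507 calls) in the control library and 17.6% (16.2 to 19.1, 2632 calls) in the TGF-beta library. The adjusted p was 2.00e-28 in Fisher's exact test and 8.49e-05 in the score test. Its mean of site levels went from 5.49% to 14.7%, and its domain from 42.6% to 45.8%.

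**Figure D3:**
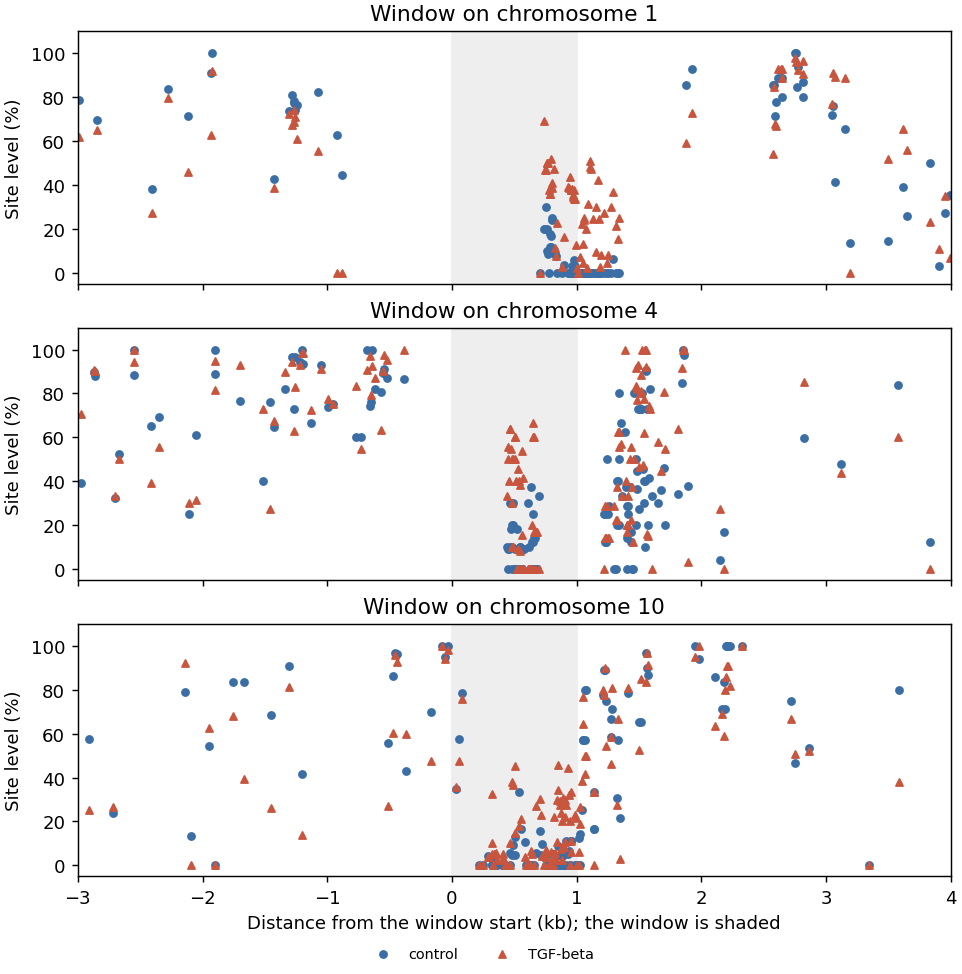
Methylation of single CpG sites (vertical axis, %) by distance from the window start (horizontal axis, kb) around the windows on chromosomes 1, 4 and 10, with control sites as blue circles, TGF-beta sites as red triangles and the window shaded. Inside the shading many red triangles stand above the blue circles. Sites about 2 kb away range from unmethylated to fully methylated in both libraries, with many at high levels.

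Other windows that differed by 10 points or more were picked out after their values were seen. The window starting at position 36598001 of chromosome 20 read 8.38% in the control library and 22.9% in the TGF-beta library. The window starting at 153001 of chromosome 26 read 9.64% and 20.4%. A window on chromosome 12, starting at 49460001, was nearly unmethylated in the control library, at 0.189% of 529 calls, and read 13.9% of 1282 calls in the TGF-beta library. That last window is the exception to the pattern in which large gains began between 5% and 10%, but its difference of 13.7 points rested on sites listed on 1 strand only. Its 53 kept sites listed on both strands read 0% in the control library and 3.91% in the TGF-beta library. The difference there was 4.47 points for plus-strand calls and 3.53 for minus-strand calls. Its 19 other kept sites read 1.03% of 97 calls and 42.1% of 335 calls. Over all members 2.60% of kept sites were listed on 1 strand only. Without them 6 windows still differed by 10 points or more, with a window starting at 32047001 of chromosome 7 (9.57% and 20.4%) in place of the one on chromosome 12.

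Most sites in these windows had no methylated call in each library. Among the 8030 sites with 10 or more calls in both libraries, 83.4% had no methylated call in the control library and 70.8% had none in the TGF-beta library, which was read more deeply. Sites at 20% or more made 3.09% in the control library and 5.95% in the TGF-beta library, and sites at 50% or more made 0.822% and 1.38%. A gain of 20 points or more was seen at 230 sites in 65 windows and a loss of that size at 36 sites in 25 windows. The gains were unevenly spread, since 5 windows held 38.7% of those sites and 10 windows held 53.5%.

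The windows richest in CpG were low in both libraries. The window with most listed sites, 149, starts at 53001 of chromosome 23 and read 0.436% (0.160 to 0.947) in the control library and 1.40% (0.995 to 1.90) in the TGF-beta library. On chromosome 4, the window starting at 72297001 with 142 listed sites read 0.385% and 0.344%. The window starting at 72927001 of chromosome 1, with 141 sites, read 5.33% and 4.47%. The window starting at 42663001 of chromosome 3, with 137 sites, read 1.09% and 1.77%. None of these 4 differed by more than 1 point.

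At a few windows no methylated call was seen at all. This held for 6 windows in the control library and 2 in the TGF-beta library, with 1 in both. That window starts at 55910001 of chromosome 3, and its 105 control calls and 330 TGF-beta calls allow levels of up to 2.86% and 0.909%, from 3 counts. Among the control zeros the window with most calls starts at 105013001 of chromosome 1, where 2203 control calls allow a level of up to 0.136%, and 23 of 5192 calls were methylated in the TGF-beta library.

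The domain with the lowest control level among the 123 held the window chr7:80974001-80975000. The domain read 35.3% in the control library and 29.6% in the TGF-beta library. The window itself read 3.36% (3.09 to 3.66) and 2.18% (2.01 to 2.36). It had the most control calls of any member, 16020, where the next had 3059, and the last listed site of the chromosome lay 468 bp after the start of the window. Its ring from 1.5 to 2.5 kb was at 17.7% in the control library, whereas the median ring over all members was at 79.2%. Whether its reads all come from this place was not tested.

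Just under the 10% limit, the window starting at 19874001 of chromosome 5 read 9.95% in the control library and 11.0% in the TGF-beta library. The one starting at 25050001 of chromosome 35 read 9.78% and 8.79%. Just above it, and so outside the set, the window starting at 52596001 of chromosome 14 read 10.2% and 7.72%, and the one starting at 20860001 of chromosome 26 read 10.3% and 7.05%.

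Close to the windows, the sequence was more highly methylated than the domain around it. The ring from 1.5 to 2.5 kb from the window centre, without other unmethylated CpG-dense windows, had a median control level of 79.2% over 148 members with kept sites there. It was above the level of its own domain in 136 of them and by 10 points or more in 123, with a median of 27.7 points. The median was 74.4% from 2.5 to 5 kb, 70.1% from 5 to 10 kb, 60.3% from 10 to 20 kb and 57.1% from 20 to 50 kb, so the level fell toward that of the domain with distance. The label of a low-methylation domain therefore describes these windows at the scale of 100 kb and not at that of a few kb.

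Around the other CpG-dense windows of low domains, which were at 10% or more in the control, the ring from 1.5 to 2.5 kb had a median of 52.3% and the one from 10 to 20 kb of 43.8%. Around unmethylated CpG-dense windows in domains from 55% to under 70%, the ring from 1.5 to 2.5 kb was at 83.9%, a median of 17.8 points above the domain. In domains at 70% or more that ring was at 85.8%, a median of 3.20 points above the domain. A ring above its domain was therefore not particular to the members, and the excess was smaller where the domain level was higher. Within the 123 domains, CpG-poor windows were also lower with distance. Windows with 5 to 9 listed sites had a median of 78.1% at 1 to 2 kb from an unmethylated CpG-dense window, 73.2% at 3 to 5 kb, 59.9% at 6 to 10 kb, 48.3% at 11 to 20 kb and 38.0% beyond 20 kb. Windows with 10 to 19 sites went from 78.3% to 48.6% over the same distances. Windows with 20 to 39 sites differed: they were lowest, at 41.4%, at 1 to 2 kb, then at 78.9% at 3 to 5 kb, 63.8% at 6 to 10 kb, 60.1% at 11 to 20 kb and 58.1% beyond 20 kb.

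**Figure D4:**
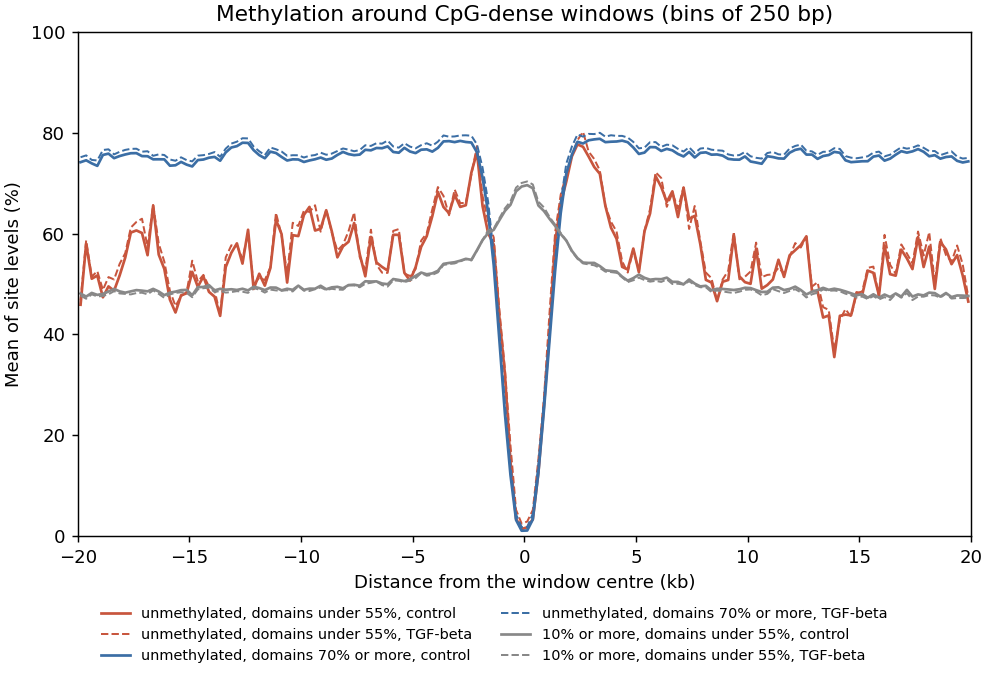
Mean site level (vertical axis, %) by distance from the window centre (horizontal axis, kb, in bins of 250 bp, all kept sites) for the 156 windows in red, unmethylated CpG-dense windows of domains at 70% or more in blue and other CpG-dense windows of low domains in grey, with control as solid and TGF-beta as dashed lines. Red drops to near 0 at the centre, climbs above 70% near 2 kb on both sides and then varies around lower levels, while blue stays above 70% from 2 kb outward.

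The level farther out differed with the place of the domain. The 119 members in domains next to one at 55% or more had a median of 80.5% at 1.5 to 2.5 kb, 65.6% at 10 to 20 kb and 61.4% at 20 to 50 kb. The 37 members in domains without such a neighbour had 75.2% at 1.5 to 2.5 kb, where 30 of 35 were 10 points or more above their domain. Their level was down to 49.2% at 10 to 20 kb and 44.5% at 20 to 50 kb. So the raised level near the window was present in both, while at 20 to 50 kb the members without such a neighbour lay at a median of -3.34 points relative to their domain.

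The rings differed little between the libraries. The median level from 1.5 to 2.5 kb was 82.3% in the TGF-beta library, with a median difference of 1.55 points per member. Ring levels at 70% or more were found around 104 members in the control library and 105 in the TGF-beta library. From 0.5 to 1.5 kb, where the unmethylated stretch ends, the sign depended on the weighting: the median level went from 46.2% to 43.3% by summed calls, whereas the mean over sites was 36.0% in the control library and 38.5% in the TGF-beta library.

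The unmethylated stretch around each window was measured outward to where 5 adjacent kept sites together reached 30%. Its median length was 1362.5 bp in the control library, with quartiles of 951.5 and 1701 bp, and 1277.5 bp in the TGF-beta library. The median change was -27 bp. It was shorter by 100 bp or more in 53 windows (34.0%), longer by that much in 11 (7.05%) and within 100 bp in 92. These are counts of windows, and adjacent members can share a stretch. The windows starting at 25045001 and 25046001 of chromosome 35, for example, both read 2191 bp in the control library and 1989 bp in the TGF-beta library. In domains at 70% or more the stretch was shorter by 100 bp or more in 28.3% of windows and longer in 8.03%, with a median change of -21 bp. When the set was chosen on the TGF-beta library, 51 windows were shorter and 14 longer, so the lean kept its direction. However, 106 of those 152 windows also belong to the set chosen on the control library, and the others were not counted apart. Whether the lean toward shorter stretches depends on the choosing library was therefore not tested. With the calls of each site drawn down to equal numbers in both libraries, 50 were shorter and 12 longer.

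**Figure D5:**
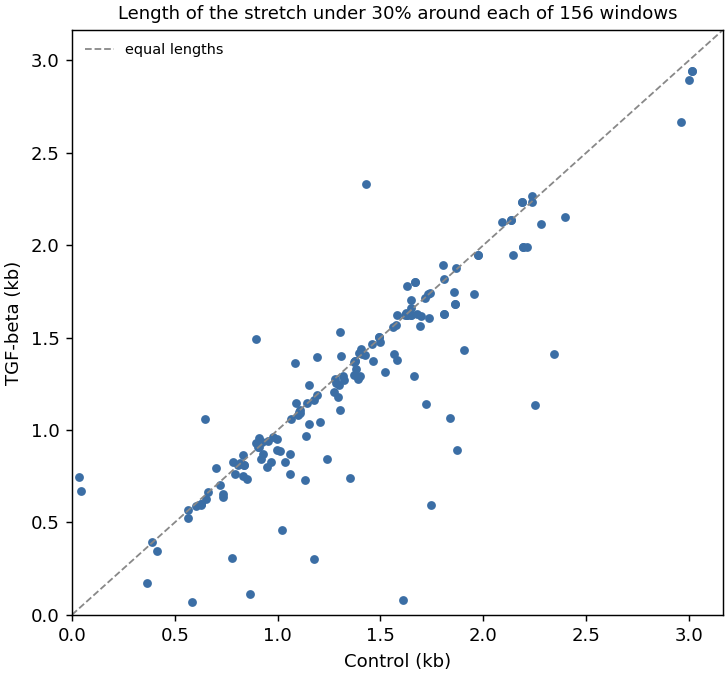
Length of the stretch under 30% around each of the 156 windows in the TGF-beta library (vertical axis, kb) against the control library (horizontal axis, kb), with the dashed line at equal lengths. Most points hug the line, and those far from it lie mostly below, where the stretch was shorter in the TGF-beta library.

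The 3 windows with the named gains also had shorter stretches in the TGF-beta library. On chromosome 1 the stretch went from 582 to 68 bp, on chromosome 4 from 866 to 111 bp and on chromosome 10 from 780 to 306 bp. These lengths come from the same calls as the window levels and add no separate measurement.

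The 123 domains were higher in the TGF-beta library by a median of 1.98 points, from -5.69 to 17.8, and 91 of them were higher. Low domains without such a window were higher by a median of 1.86 points. Both values are by summed calls, and the mean over sites was not computed for domains. From 20 to 50 kb around other CpG-dense windows of low domains, the difference was 2.58 points by summed calls and -0.392 by the mean over sites. Around the members at that distance it was 0.749 and 0.807 points. The 13 members in domains that gained 5 points or more had a median difference of 0.438 points, with 1 of them at 10% or more in the TGF-beta library, and the other 143 had 0.336 points. Across the 156 members, which share 2 libraries and in part their domains, the correlation between the difference of the window and that of its domain was 0.0705. On chromosome 8 a domain went from 50.7% to 68.5% while its window, starting at 61973001, read 5.59% of 644 calls and 9.68% of 2573 calls. On chromosome 14 a domain went from 52.8% to 64.4%, and its window, starting at 1104001, had 0 of 25 methylated calls in the control, which allows up to 12.0%, and 0.752% of 133 calls in the TGF-beta library.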

How the data were processed

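Whole-genome bisulfite sequencing calls from 2 libraries were used, 1 control and 1 TGF-beta, grouped by the labelled agent. The deposited values are counts: the authors' files give methylated and unmethylated calls per CpG cytosine, without a header. The submitters' processing notes name Bismark, Bowtie 0.12.8 and canFam3, but the labels' protocols name SOAPaligner2. Duplicate removal is not given in the sources used here, and duplicates that were kept would make the intervals too narrow. Mitochondrial DNA showed which column counts methylated calls. In each file 1 line without a chromosome was left out (12 and 6 calls).

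Both strands were summed into 25888236 CpG sites. Levels are summed methylated over all calls at sites with 5 or more calls in both libraries. Domains needed 50 sites. Windows needed 5 kept sites and were compared by a two-sided Fisher's exact test with Benjamini-Hochberg adjustment over 1497941 windows, called at an adjusted p under 0.05 and 20 points. This test was tried on simulated data first. Python 3.11.15, numpy 2.4.6, scipy 1.17.1, pandas 2.3.3 and numba 0.67.0 were used.

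The members, lists and rules were chosen with earlier results of these data known. Windows were named by rule: the 8 largest differences with 200 calls per library and 10 points on each strand (3 met this), the 4 with most listed sites, up to 3 in the lowest domain, the chromosomes and domain with most or fewest members, and the pairs nearest the 10% limit. Alternatives covered site, window and domain limits, weighting, strand, depth, window placement and the choosing library. Gene names and sequence of the canFam3 build were not used here.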

Additional observations from a re-analysis of the deposited data

How the results depend on the processing

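Windows higher by 10 points or more minus those lower came to 6, and to -4 when the TGF-beta library did the choosing. The limit of 10% in the choosing library fixed the sign of this balance in both cases. This balance was 3 with equal calls per site, with a domain limit of 50% and with 80% of sites kept, 10 with a domain limit of 60% and in windows chosen on the plus and measured on the minus strand, and 1 and 23 with window limits of 5% and 20%. No other value followed through these alternatives changed sign. Differences outside them did turn between summed calls and the mean of site levels. This held for the median difference of the ring from 0.5 to 1.5 kb. It also held for the windows starting at 72927001 of chromosome 1, 19874001 of chromosome 5 and 25050001 of chromosome 35. The domain difference was not computed by the mean over sites. The number of windows was 65 with a domain limit of 50% and 285 with 60%. With window limits of 5% and 20%, the median TGF-beta level was 1.23% and 7.72%. The median difference (0.338 points) was 0.719 with the 20% window limit, 0.709 by the mean of site levels, 0.621 with equal calls per site and 0.153 when windows were chosen on the TGF-beta library. The number at 10% or more in the TGF-beta library (18) was 39 when chosen on the minus and measured on the plus strand, 31 the other way round, 8 and 33 with domain limits of 50% and 60%, 3 and 91 with window limits of 5% and 20%, and 10 among windows with 80% of sites kept. It was 0 by construction when the TGF-beta library did the choosing.

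The number of called windows (1) was 6 at 10 points, 0 at 30 points, 2 with 10 or more calls per site, with equal calls per site, with all dense windows left out of the domain level and with windows shifted by 500 bp, and 3 on the minus strand and with a domain limit of 60%. It was 3 and 4 in the strand choices, 0 and 6 with window limits of 5% and 20%, and 0 with 80% of sites kept, where fewer windows were counted. On chromosome 4 the window was called with 10 or more calls per site (23.6 points), on the minus strand (21.8) and with equal calls (20.2).

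The share of dense windows of low domains that were unmethylated (2.32%) was 1.18% with all dense windows left out of the domain level, 1.53% and 2.88% with domain limits of 50% and 60%, 1.98% and 3.14% with window limits of 5% and 20%, and 1.95% with shifted windows. The ring level (79.2%) was 73.0% with the 50% domain limit. Its difference (1.55 points) was 0.294 on the plus strand, for both choices of windows. The domain difference (1.98) was 0.459 when chosen on the TGF-beta library. Windows shorter and longer by 100 bp or more (53 and 11) were 33 and 7 with 80% of sites kept, and the longer ones were 18 and 25 with stretch ends at 20% and 50%. The median change of the stretch (-27 bp) was -13.5 bp with 10 or more calls per site. Where no reason is given, the cause was not tested.

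The choices of 80% kept sites, stretch ends, equal calls for stretches, the TGF-beta library as chooser, the balance of large differences, sites listed on both strands only and the set without chromosome 35 were added after seeing the data. Depth limits a window of few calls: 25 control calls with none methylated allow a level of up to 12.0%. No paired analysis was possible because each group had 1 library.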
